A study of Mus musculus with 8 samples.

Results

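The 10 genes of arginase, ornithine and polyamine metabolism described here encode the 2 arginases, an arginine transporter and the enzymes and regulators that carry ornithine, the product of arginase, toward proline and polyamines. They were taken by name from the deposited tables, and all 10 were found among 53342 genes. Arg1 and Arg2 encode the arginases, Slc7a2 encodes the cationic amino acid transporter CAT2, and Oat encodes ornithine aminotransferase. Odc1, Azin1 and Oaz1 encode ornithine decarboxylase, antizyme inhibitor 1 and antizyme 1. Srm, Sms and Sat1 encode spermidine synthase, spermine synthase and spermidine/spermine N1-acetyltransferase.

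The mice were wild type, of strain C57BL/6 and 8 weeks old, and their cardiac macrophages were sorted 3 days after an infarction by the surface protein Ly6C, into a subset rich in it (Ly6Chi) and a subset poor in it (Ly6Clo). The sorted cells then spent 24 hours in culture with IL-21, an interleukin secreted chiefly by T helper cells, at 100 ng/mL, or without it. Each of the 4 groups (Ly6Chi with IL-21, Ly6Chi without, Ly6Clo with IL-21, Ly6Clo without) had 2 libraries, and all groups shared genotype, strain, age and infarction. The labels do not say whether the 2 libraries of a group came from separate mice or cultures, so the p-values rest on the spread among these libraries alone, and that spread may be technical. Cells lacking the IL-21 receptor (il21r-/-), which the series title names, were not analysed here.

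Arginase splits arginine into urea and ornithine. Ornithine has several fates: ornithine aminotransferase turns it toward proline, a building block of collagen, and ornithine decarboxylase turns it into putrescine, from which spermidine synthase and spermine synthase build spermidine and spermine. High arginase 1 is a classic mark of macrophages exposed to interleukin 4 or interleukin 13, in which it competes for arginine with the inducible nitric oxide synthase, and wound macrophages are known to express it. Antizyme ties polyamine levels back to their synthesis, since it binds ornithine decarboxylase and sends it to the proteasome, while antizyme inhibitor, a relative of the decarboxylase without its activity, captures antizyme.

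Antizyme itself is controlled at translation: its messenger RNA holds a stop codon in the first reading frame, which ribosomes pass by a shift of 1 base when polyamines are plentiful. That site is shown because the counts below measure antizyme messenger RNA and do not measure this step. It is the 30 bases of transcript Oaz1-205 at chr10:80828280-80828309, plus strand, of GRCm38 (GENCODE M21), inside the coding part of the gene, and capitals mark the codon TCC and the stop codon TGA.
Oaz1 frameshift site: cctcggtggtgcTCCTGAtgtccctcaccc
In the annotation the coding models of 3 of the 6 coding transcripts of Oaz1 leave out 1 base of this stop codon, at position 80828295.

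Deposited totals were 224329 to 483593 counts per library. On the scaled totals of the genes that passed the count filter, which CPM (counts scaled to a common library total) use here, 3 counts corresponded to 6.58 to 14.9 CPM, and low transcripts could be missed in a single library. Ly6c2, which encodes a Ly6C antigen, was at 12 to 74.6 CPM in the 4 Ly6Clo libraries, against 372 to 545 CPM in the 4 Ly6Chi libraries, in the direction of the labels. Of 8 macrophage markers, 7 were above 0, and Itgam was at 0 in all libraries. The summed level of these markers was 6807 to 10576 CPM with IL-21 and 6952 to 11537 CPM without, and the summed ranges of the 9 other marker lists, from neutrophils to cardiomyocytes, overlapped between the conditions as well. Neutrophil markers summed to 79.9 to 184 CPM with IL-21 and to 66.4 to 114 CPM without, with Retnlg, Ly6g and Ngp at 0. In bulk samples such as these, fewer cells of a type and less RNA per cell cannot be told apart. Of the 10 genes, 5 passed the filter on low counts (Arg1, Oat, Azin1, Oaz1 and Sat1), and Arg2, Slc7a2, Odc1, Srm and Sms, with 29 to 61 counts each over all 8 libraries, did not. For those 5 the values come from a fit without the filter, over 17757 genes with at least 1 count.

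Arg1 was the one gene of the 10 whose rise with IL-21 was called. Its counts made up 62.4 to 68.8% of all counts of the 10 genes in the 4 libraries with IL-21, and 28.3 to 42.7% in the 4 without. The 95% Wilson intervals of these shares, which cover counting error only, reached down to 58.3% with IL-21 and up to 47.9% without, so they did not meet. None of the 9 other genes was called in either direction.

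Arg1 (ENSMUSG00000019987, chr10:24915221-24927484, minus strand, GRCm38) had 1822 and 1738 CPM in Ly6Chi cells with IL-21, against 410 and 595 CPM in Ly6Chi cells without. In Ly6Clo cells it had 2031 and 2354 CPM with IL-21, against 598 and 617 CPM without. Every library with IL-21 lay above every library without it, and 2.19% of the genes tested were higher without overlap in the same way. Group means were 1780 ± 59.8 CPM in Ly6Chi cells with IL-21 and 502 ± 131 CPM in those without (SD, n = 2 each). They were 2192 ± 228 CPM in Ly6Clo cells with IL-21 and 607 ± 13.3 CPM in those without (SD, n = 2 each). Averaged over the subsets, the log2 fold change was 1.84 (SE 0.16, 95% interval 1.49 to 2.19), a rise of 3.57-fold (quasi-likelihood test of edgeR, adjusted p 7.2e-05). In this comparison 0.171% of the genes tested were called.

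**Figure D1:**
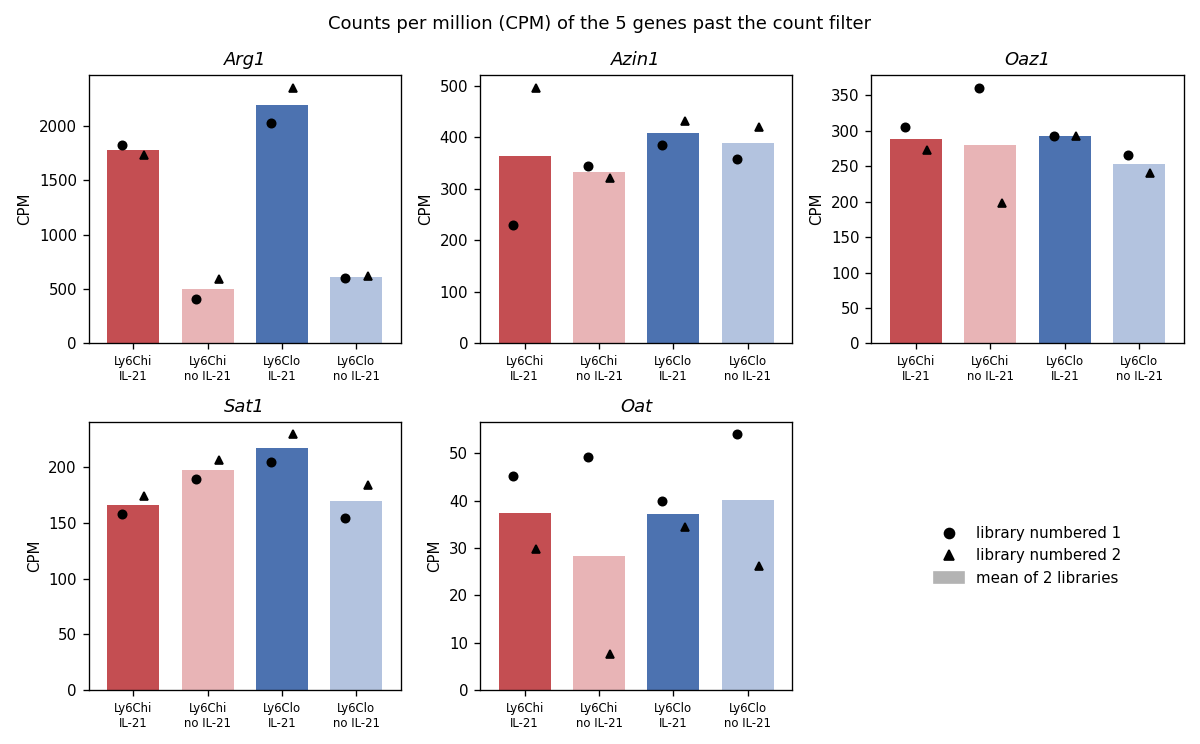
Level in CPM (vertical axes, each from 0) of the 5 genes that passed the count filter, in the 4 groups along each horizontal axis. Bars are means of 2 libraries, circles and triangles the libraries numbered 1 and 2. Arg1 stands at 1738 to 2354 CPM with IL-21 and at 410 to 617 CPM without, while the ranges of Azin1, Oaz1, Sat1 and Oat with and without IL-21 overlap.

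Arg1 rose in both subsets. The log2 fold change of Arg1 was 1.82 (SE 0.23, 95% interval 1.33 to 2.32; edgeR adjusted p 0.00694) in Ly6Chi cells, where 0.019% of the genes tested were called. It was 1.85 (SE 0.23, 95% interval 1.36 to 2.34; edgeR adjusted p 0.00486) in Ly6Clo cells, where 0.133% were called. The difference of the effects, Ly6Clo minus Ly6Chi, was 0.03 on the log2 scale with a 95% interval of -0.65 to 0.71, and its edgeR adjusted p was 1. In this comparison edgeR called 0 genes (0%), with 92 of the genes tested at an unadjusted p under 0.05, and DESeq2 and limma-voom called 0 as well. Between libraries of the same number the log2 ratio of Arg1 with IL-21 over without was 2.15 and 1.55 in Ly6Chi cells and 1.76 and 1.93 in Ly6Clo cells.

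The call in Ly6Chi cells was lost without the library with IL-21 numbered 1 (log2 fold change 1.80 at an edgeR adjusted p of 0.0535), and likewise without the library lacking IL-21 numbered 1 (1.60, edgeR adjusted p 0.174). That in Ly6Clo cells was lost without the library lacking IL-21 numbered 2 (1.89, edgeR adjusted p 0.078) and with the 4 Ly6Clo libraries fitted alone (1.85, edgeR adjusted p 0.0743).

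The 4 groups ordered by their mean Arg1 level were Ly6Clo with IL-21, Ly6Chi with IL-21, Ly6Clo without and Ly6Chi without. The step between Ly6Chi with IL-21 and Ly6Clo without it was the widest, with 1738 CPM as the lowest library with IL-21 and 617 CPM as the highest without. Within each condition both Ly6Clo libraries lay above both Ly6Chi libraries. Without IL-21 the nearest values of the subsets were nearly equal, at 598 and 595 CPM. The share of all genes with this arrangement was not computed. Ly6Clo against Ly6Chi, averaged over both conditions, had a log2 fold change of 0.29 (SE 0.16, 95% interval -0.05 to 0.63) and an edgeR adjusted p of 0.684. In that comparison 0.19% of the genes tested were called, and none of the 5 tested genes of this group was among them, by edgeR, DESeq2 or limma-voom. None of the 5 had an unadjusted p under 0.05 in edgeR.

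Arg2 (ENSMUSG00000021125, chr12:79130777-79156301, plus strand), the mitochondrial arginase, was read at 2 to 14 counts per library. It had 52.7 and 24.8 CPM in Ly6Chi cells with IL-21, against 8.20 and 11.4 CPM in those without. The Ly6Clo values were 24.0 and 27.1 CPM with IL-21, against 24.9 and 13.2 CPM without. The Ly6Chi libraries were apart and the Ly6Clo libraries overlapped. Such a separation of 2 libraries from 2 is common among genes past the count filter. In Ly6Chi cells 15.9% of them were higher with IL-21 and 15.6% lower, and for Ly6Clo cells these shares were 15% higher and 14.5% lower. Arg2 did not pass that filter, nor did Odc1, Srm and Sms, whose separations are given below. The share among genes below the filter was not computed. The averaged log2 fold change was 1.26 (95% interval 0.29 to 2.23), with an unadjusted p of 0.00952 and an edgeR adjusted p of 0.924, so it was not called. In this fit without the filter 0.197% of 17757 genes were called.

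The last 500 bases of the Arg2 transcript share 285 identical bases with Vti1b, a gene of vesicle transport on the opposite strand, and the sources used here do not say whether counting used strand. Vti1b stood at 99.3 to 133 CPM in the 4 libraries with IL-21 and at 70.6 to 98.8 CPM in the 4 without. These ranges nearly touch, and 2.19% of the genes tested were higher with IL-21 without overlap. The log2 fold change of Vti1b was 0.44 (95% interval -0.04 to 0.92; edgeR adjusted p 0.99), and its part in the Arg2 values was not tested. Arg1 made up 96.0 to 98.9% of the counts of both arginases in every library. Wilson 95% intervals of that share, for counting error only, ran from a lowest limit of 91.5% to a highest of 99.5%.

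Slc7a2 (ENSMUSG00000031596, chr8:40862396-40922308, plus strand), which brings arginine into the cell and is known to be needed for full arginine use by activated mouse macrophages, had 1 to 9 counts per library. It had 11.3 and 4.96 CPM in Ly6Chi cells with IL-21, against 36.9 and 3.81 CPM in those without. Ly6Clo cells had 12 and 7.39 CPM with IL-21, against 20.8 and 8.78 CPM without. The ranges overlapped in both subsets, and the Ly6Chi library without IL-21 numbered 1 held 9 of the 29 counts. The averaged log2 fold change was -0.85 (95% interval -2.17 to 0.47; edgeR adjusted p 1). Without that library it was 0.29, the opposite direction. Its transcript ends match stretches of 9 other genes, which held 4649 counts in all, so its counts are uncertain.

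Oat (ENSMUSG00000030934, chr7:132557478-132576398, minus strand) leads from ornithine toward proline and glutamate, and it was not called in any comparison. It had 45.2 and 29.8 CPM in Ly6Chi cells with IL-21, against 49.2 and 7.63 CPM in those without. In Ly6Clo cells the values were 40.0 and 34.5 CPM with IL-21, against 54.0 and 26.3 CPM without. The lowest value lay in a Ly6Chi library without IL-21, and the ranges overlapped in both subsets. With 2 to 14 counts per library, the averaged log2 fold change was 0.22 (SE 0.46, 95% interval -0.78 to 1.21; edgeR adjusted p 1), an interval that reaches up to a 2.31-fold rise. Single Ly6Chi libraries without IL-21 decided this value, which was 1.13 without the one numbered 1 and -0.18 without the one numbered 2, and it was -0.04 without the Ly6Clo library lacking IL-21 numbered 2.

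Odc1 (ENSMUSG00000011179, chr12:17544794-17551505, plus strand) encodes the enzyme that commits ornithine to polyamines. It had 15.1 and 0 CPM in Ly6Chi cells with IL-21, against 24.6 and 15.3 CPM in those without. In Ly6Clo cells it had 28.0 and 14.8 CPM with IL-21, against 24.9 and 35.1 CPM without. The Ly6Chi libraries were lower with IL-21 without overlap, the Ly6Clo libraries overlapped, and 17 counts with IL-21 stood against 32 without. The averaged log2 fold change was -0.90 (95% interval -1.98 to 0.18; edgeR adjusted p 1). It was -0.51 without the Ly6Chi library with IL-21 numbered 2, which held 0 counts. Without the one numbered 1 the library at 0 stood alone for its group, and the fitted value of -3.08 is then no measure of size.

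The regulators of the decarboxylase were read more deeply, and neither was called in any comparison. Azin1 (ENSMUSG00000037458, chr15:38487427-38519266, minus strand) had 230 and 496 CPM in Ly6Chi cells with IL-21, against 344 and 320 CPM in those without. The Ly6Clo values were 384 and 431 CPM with IL-21, against 357 and 419 CPM without. The 2 Ly6Chi libraries with IL-21 held both the lowest and the highest of the 8 values. The averaged log2 fold change was 0.09 (SE 0.21, 95% interval -0.36 to 0.54; edgeR adjusted p 1), and -0.23 without the Ly6Chi library with IL-21 numbered 2.

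Oaz1 (ENSMUSG00000035242, chr10:80826656-80829290, plus strand), whose frameshift site is printed above, had 305 and 273 CPM in Ly6Chi cells with IL-21, against 361 and 198 CPM in those without. Ly6Clo cells had 292 and 293 CPM with IL-21, against 266 and 241 CPM without. The Ly6Chi libraries overlapped, and the Ly6Clo libraries were higher with IL-21 by less than the gap between the Ly6Chi libraries without it. The averaged log2 fold change was 0.13 (SE 0.19, 95% interval -0.28 to 0.54; edgeR adjusted p 1), and -0.05 without the Ly6Chi library lacking IL-21 numbered 2. For both regulators the interval ends below 1, which is a doubling, in the average and in each subset: the highest upper limit was 0.76 for Azin1 and 0.78 for Oaz1.

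The synthases that follow were near the limit of detection. Srm (ENSMUSG00000006442, chr4:148591503-148594993, plus strand) had 15.1 and 29.8 CPM in Ly6Chi cells with IL-21, against 12.3 and 11.4 CPM in those without. In Ly6Clo cells the values were 36.0 and 27.1 CPM with IL-21, against 54.0 and 26.3 CPM without. The Ly6Chi libraries were higher with IL-21 without overlap, with a log2 fold change of 0.83 (95% interval -0.74 to 2.40; edgeR adjusted p 1), and the Ly6Clo libraries overlapped. Its averaged IL-21 log2 fold change was 0.29 (95% interval -0.66 to 1.24; edgeR adjusted p 1). Srm was the one gene of the 10 with an unadjusted p under 0.05 between the subsets in the fit without the filter, with a log2 fold change of 1.08 for Ly6Clo against Ly6Chi (95% interval 0.16 to 2.00, p 0.0188), but an edgeR adjusted p of 0.795, where 0.327% of genes were called.

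Sms (ENSMUSG00000071708, chrX:157443855-157492287, minus strand) had 15.1 and 14.9 CPM in Ly6Chi cells with IL-21, against 12.3 and 22.9 CPM in those without. In Ly6Clo cells it had 16 and 2.46 CPM with IL-21, against 29.1 and 19.8 CPM without. The Ly6Clo libraries were lower with IL-21 without overlap, on 5 counts against 16. The averaged log2 fold change was -0.88 (95% interval -2.06 to 0.30; edgeR adjusted p 1). Leaving out IL-21 library 1 of the Ly6Clo cells gave -1.62, with a library of 1 count left for its group. Leaving out IL-21 library 2 of these cells gave -0.40. Stretches of its transcript ends also occur in 7 other genes, which held 26 counts in all, so the division of reads between them is uncertain. Such stretches also occur for Odc1 (6 genes with 4 counts), Sat1 (2 genes, of which 1 was in the tables with 2 counts) and Oaz1 (1 gene with 1 count), and none were found for Arg1, Oat, Azin1 and Srm.

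Sat1 (ENSMUSG00000025283, chrX:155213132-155216449, minus strand) starts the breakdown of spermidine and spermine by adding an acetyl group. It had 158 and 174 CPM in Ly6Chi cells with IL-21, against 189 and 206 CPM in those without. The Ly6Clo values were 204 and 229 CPM with IL-21, against 154 and 184 CPM without. IL-21 libraries were thus lower without overlap in Ly6Chi cells and higher without overlap in Ly6Clo cells, an arrangement with opposite directions that 3.61% of the genes tested showed. The log2 fold change was -0.25 (SE 0.26) in Ly6Chi cells and 0.35 (SE 0.24) in Ly6Clo cells, and the test of their difference gave 0.60 (SE 0.35, 95% interval -0.15 to 1.35; p 0.106, edgeR adjusted p 1). Averaged over the subsets the log2 fold change of Sat1 was 0.05 (SE 0.18, 95% interval -0.33 to 0.42; edgeR adjusted p 1), and -0.01 without the Ly6Clo library lacking IL-21 numbered 1.

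**Figure D2:**
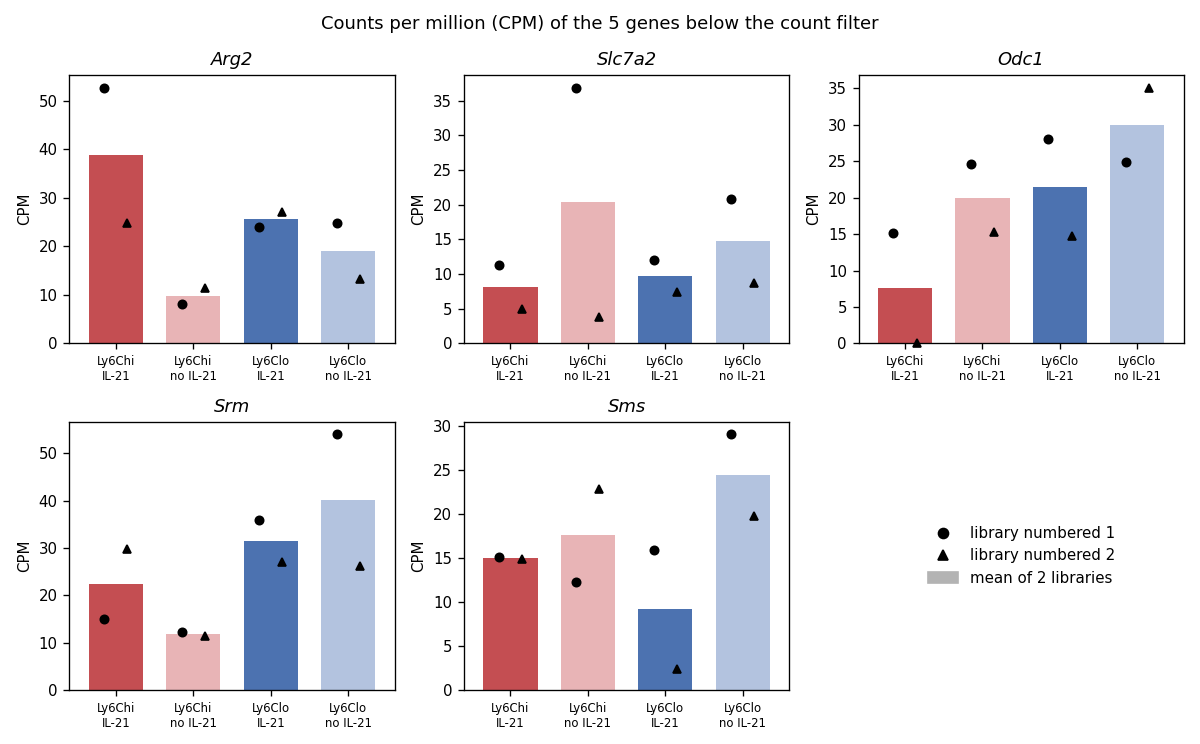
Level in CPM (vertical axes, each from 0) of the 5 genes below the count filter, in the 4 groups along each horizontal axis. Bars are means of 2 libraries, circles and triangles the libraries numbered 1 and 2. The libraries hold these genes at 0 to 16 counts, and Arg2 in Ly6Chi cells has 52.7 and 24.8 CPM with IL-21 and 8.20 and 11.4 CPM without.

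At this depth the rise of Arg1 was not joined by a called change in any enzyme or regulator that follows it. Of the 4 tested genes besides Arg1 (Oat, Azin1, Oaz1 and Sat1), edgeR, DESeq2 and limma-voom each called 0 in the averaged comparison. None of the 4 had an unadjusted p under 0.05 by any of the 3. Over all genes tested edgeR called 0.171%, and 5.33% had an unadjusted p under 0.05 in edgeR. Counts of 0 of 4 are near these shares and do not set the 4 genes apart from other genes. Their median log2 fold change was 0.11, beside -0.01 over all 5256 genes tested. In the fit without the filter and with all 8 libraries, the averaged 95% intervals of 8 of the 9 other genes ended below 1.52. That was the lower limit of the averaged Arg1 interval in that fit, and Arg2 was the exception. In Ly6Chi cells the intervals of Arg2, Srm, Oat and Sms reached 3.43, 2.40, 1.57 and 1.43, above the Arg1 lower limit of 1.36. The remaining genes ended below it. In Ly6Clo cells only Arg2 reached above the Arg1 lower limit, at 1.82 against 1.42. The averaged intervals are wide for the genes with few counts. A doubling lies inside those of Arg2, Srm and, in the fit with the filter, Oat, and a halving lies inside those of Slc7a2, Odc1 and Sms.

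**Figure D3:**
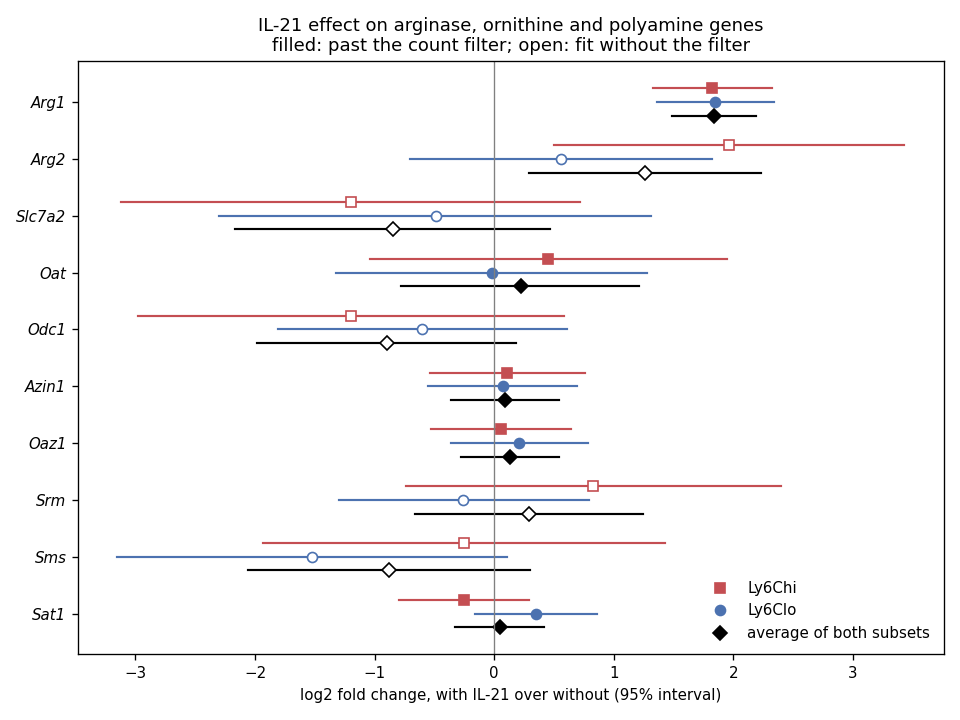
Log2 fold change with IL-21 over without (horizontal axis) for each of the 10 genes (rows), in Ly6Chi cells (squares), Ly6Clo cells (circles) and averaged (diamonds), with 95% intervals. Filled symbols come from the fit with the count filter and open symbols from the fit without it. Arg1 lies at 1.82, 1.85 and 1.84 with narrow intervals, and every averaged interval except those of Arg1 and Arg2 includes 0.

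The wider pathway was described by 5 lists, of which 22 genes were tested. In the averaged IL-21 comparison edgeR, DESeq2 and limma-voom each called 0 of the 22. At an unadjusted p under 0.05 there were 2 in edgeR, 0 in DESeq2 and 1 in limma-voom. In edgeR 0.171% of all genes tested were called, and 5.33% had an unadjusted p under 0.05. With so few genes, counts of 0 and 2 of 22 do not set the wider pathway apart from other genes.

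Of 15 genes of arginine supply and competing use, 4 were tested, 1 was higher and 2 were lower with IL-21, Slc3a2 was at 0.00, and the median log2 fold change was -0.12. Otc and Cps1 of the urea cycle and Agmat were at 0 in all libraries. Nos2, the inducible nitric oxide synthase that competes with arginase for arginine, had 3 counts in the 4 libraries with IL-21 and 4 in the 4 without, which is too few to compare, and it falls outside the naming rule and was chosen after its values were seen. Slc7a8, a transporter of neutral amino acids, was at 0.22 (95% interval -0.12 to 0.56), Gch1, which makes the cofactor of nitric oxide synthase, at -0.23 (-0.75 to 0.29), and Ass1 at -0.33 (-1.28 to 0.61), each with an edgeR adjusted p of 1.

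Ass1, argininosuccinate synthase, which helps rebuild arginine from citrulline, had a larger log2 fold change between the subsets than with IL-21, though neither was called. It had 12, 64.1, 33.2 and 65.8 CPM in the Ly6Clo libraries (with IL-21 numbered 1 and 2, then without), against 188, 74.5, 184 and 160 CPM in the Ly6Chi libraries in the same order. All 4 Ly6Clo libraries lay below all 4 Ly6Chi libraries, as 2.74% of the genes tested did. The log2 fold change was -1.69 (SE 0.42, 95% interval -2.62 to -0.76), with an edgeR adjusted p of 0.23, so it was not called. It was called in 2 of 16 alternatives. The first was the fit without the count filter (-1.66, edgeR adjusted p 6.34e-07), where the p-value rests on a spread shared by all genes. The second left out the Ly6Clo library with IL-21 numbered 2, so that 1 library stood for its group (-2.57).

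Of 13 genes that lead from ornithine to proline and glutamate, 6 were tested, with 3 higher and 3 lower and a median log2 fold change of 0.01. Pycr1, a last-step enzyme of proline synthesis, was at 0 in all libraries. P4ha1, a subunit of collagen prolyl hydroxylase, was at 0.29 (95% interval -0.23 to 0.80) and Glud1, glutamate dehydrogenase, at -0.19 (-0.62 to 0.25), each with an edgeR adjusted p of 1.

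Of 14 further genes of polyamine synthesis, breakdown and transport, 6 were tested, with 4 higher and 2 lower and a median log2 fold change of 0.12. Slc18b1 and Slc22a3 were at 0 in all libraries. Atp13a3, a polyamine transporter, was at -0.75 (SE 0.34, 95% interval -1.46 to -0.03; p 0.0403, edgeR adjusted p 0.877), and Paox, an oxidase of acetylated polyamines, at 0.67 (SE 0.33, 95% interval -0.03 to 1.37; edgeR adjusted p 0.942). Smox, spermine oxidase, had 75.9 and 96.1 CPM in Ly6Clo cells with IL-21, against 20.8 and 54.9 CPM in those without. In Ly6Chi cells it had 75.3 and 104 CPM with IL-21, against 107 and 103 CPM without. The difference of its effects between the subsets was 1.31 (SE 0.56, 95% interval 0.12 to 2.50; p 0.032, edgeR adjusted p 1). In that comparison 1.75% of all genes tested had an unadjusted p under 0.05 in edgeR. Of the 22 tested pathway genes 3 did, in both directions: Smox, Atp13a2 at 1.19 and Mtap at -1.84. Atp13a2 falls outside the naming rule. S-adenosylmethionine decarboxylase, which feeds both synthases, is encoded by Amd1 and its close relative Amd2, named here after their values were seen. Amd1 held 8 counts with IL-21 and 8 without, and Amd2 held 56 with IL-21 and 65 without, with a division between them that is uncertain.

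Of 10 genes of the methionine cycle and salvage, which supply the aminopropyl groups of the polyamines and recover their by-product, 5 were tested, with 1 higher and 4 lower and a median log2 fold change of -0.33. Mat2a, which makes S-adenosylmethionine, had 67.8, 94.3, 87.9 and 106 CPM with IL-21 (Ly6Chi, then Ly6Clo), against 102, 133, 154 and 143 CPM without. The groups were apart within each subset and overlapped across them. Of the genes tested, 15.6% were lower without overlap in Ly6Chi cells and 14.5% in Ly6Clo cells. The share lower in both subsets was not computed. The averaged log2 fold change of Mat2a was -0.58 (SE 0.22, 95% interval -1.05 to -0.10; p 0.0204, edgeR adjusted p 0.794). Mtap, which salvages methylthioadenosine, had 20 and 14.8 CPM in Ly6Clo cells with IL-21, against 62.3 and 52.7 CPM in those without. In Ly6Chi cells it had 26.4 and 34.8 CPM with IL-21, against 32.8 and 22.9 CPM without. The averaged value of Mtap was -0.80 (95% interval -1.62 to 0.02; edgeR adjusted p 0.932), and its effect in Ly6Clo cells was -1.72 (SE 0.51, p 0.00373, edgeR adjusted p 0.773). Mat2b, the regulatory partner of Mat2a, was at -0.33 (95% interval -0.78 to 0.12; edgeR adjusted p 1).

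Of the 4 hypusine genes, which use spermidine to modify a translation factor, 1 was tested, and this was Eif5a, the factor itself, at -0.29 (95% interval -0.77 to 0.20; edgeR adjusted p 1).

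**Figure D4:**
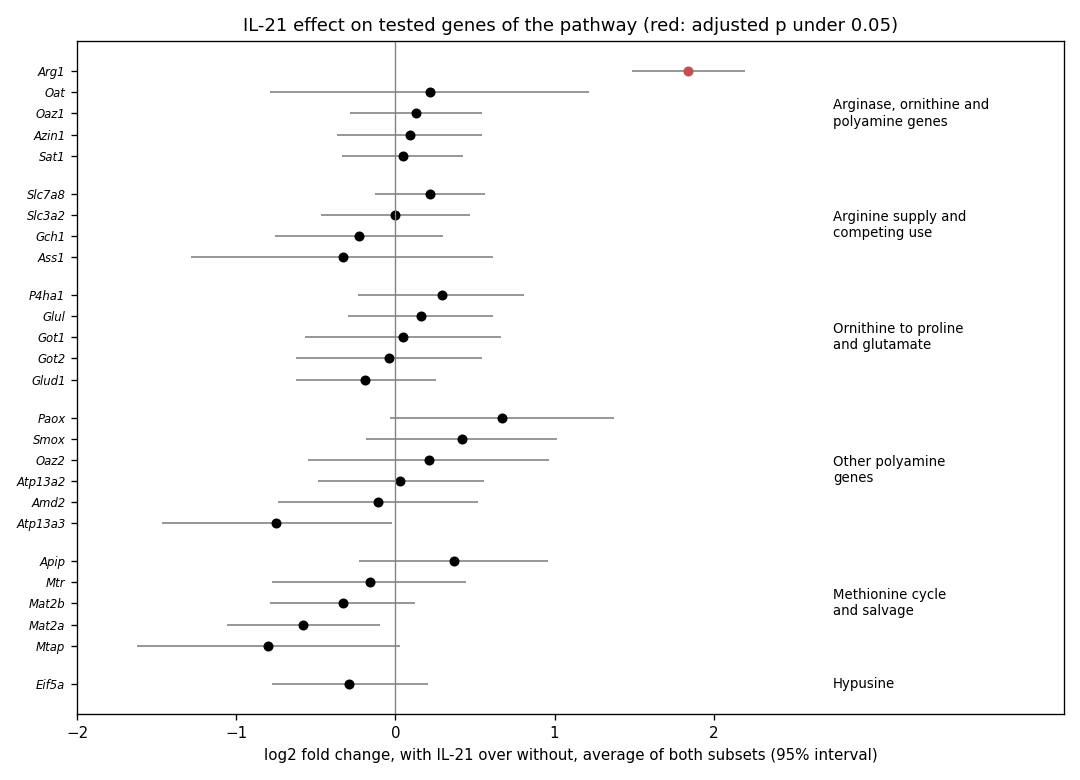
Averaged log2 fold change with IL-21 over without (horizontal axis, with 95% intervals) of the 5 tested genes described here and of 21 of the 22 tested genes of the 5 pathway lists (rows, grouped). Red marks an edgeR adjusted p under 0.05, which Arg1 alone reached, at 1.84; the other genes shown lie between -0.80 and 0.67.

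The 5 genes whose levels were most like those of Arg1 across the 8 libraries lay outside the pathway. The pathway holds few of the genes ranked, so this was likely beforehand and says little about the pathway. Values of r for the genes of the pathway lists are not given here. Among 2923 genes with a mean of at least 20 counts, Pearson's r of log2 CPM with Arg1 was highest for Tmem8 (0.98), a membrane protein, followed by Il4ra (0.95), the interleukin 4 receptor alpha chain, Pkm (0.94), the glycolytic pyruvate kinase, Eps8 (0.93), an actin regulator, and Ggta1 (0.93), a galactosyltransferase. These are descriptions over 8 libraries that share the same IL-21 contrast. In the same ranking Sat1 stood at 0.22 (rank 891), Oaz1 at 0.19 (rank 967) and Azin1 at 0.12 (rank 1142), and the remaining 6 genes had too few counts to be ranked.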

How the data were processed

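Libraries were made with a QuantSeq 3' FWD kit and its module for molecular identifiers and, per the labels' protocols, sequenced from 1 end over 75 bases. Each deposited table gives an expected count per Ensembl gene, called raw per the file headers, and 53.3 to 59.7% of values above 0 in a library were not whole (tolerance 0.001). The build mm10 and the tool DESeq2 appear, with no version or role, per the submitters' processing notes. Not given in the sources used here are the aligner, the counting program, the annotation and the use of identifiers and strand. Without the identifiers, counts would include amplified copies.

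The design assumed whole counts, so values were rounded. Identifiers were matched to GENCODE M21 (GRCm38, mm10), with 53237 of 53342 found. Genes passing edgeR's filterByExpr (minimum count 10, minimum total 15; 5256 genes) were normalised by TMM and fitted in 1 model with 4 group means. Contrasts were tested with edgeR 4.0.16's robust quasi-likelihood F test (limma 3.58.1, R 4.3.3), with Benjamini-Hochberg adjustment over all genes tested and calls at an adjusted p under 0.05. The standard error (SE) is the log2 fold change over the square root of F, and 95% intervals use the t distribution at the test's degrees of freedom. Without the filter these degrees of freedom were so many that intervals and p-values rest on a spread shared by all genes. CPM were computed from rounded counts over the passing genes' totals, scaled by TMM. Shares have Wilson intervals. The last 500 bases of each transcript were compared with all transcripts by blastn 2.17.0 (matches of at least 50 bases at 95% identity).

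Alternatives were DESeq2 1.42.0, limma-voom, DESeq2-style size factors or plain library sizes in edgeR, no filter or a mean count of at least 20, unrounded values, a replicate block, each library left out, and 1 subset alone. The fit was tested on 5 simulations of the 5256 genes past the filter, with known changes, in the averaged comparison. It called 98.3% of 4-fold changes, 59.2% of 2-fold changes and 0.149% of unchanged genes, so a 2-fold change could be missed. The 10 genes and the pathway lists were chosen with earlier results of these data known. Named genes are the 10, up to 3 tested genes with the smallest p in the averaged IL-21 comparison from each list, and the 5 most like Arg1. Of these, 1 gene of the proline and glutamate list that this rule names is not reported here.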

Additional observations from a re-analysis of the deposited data

Results flagged for a closer look

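Sat1, which starts polyamine breakdown, had opposite directions with IL-21 in the 2 subsets. It was higher in both Ly6Clo libraries with IL-21 (204 and 229 CPM) than in both without (154 and 184 CPM), and lower in both Ly6Chi libraries with IL-21 (158 and 174 CPM) than in both without (189 and 206 CPM). The test of the difference, Ly6Clo effect minus Ly6Chi effect, gave 0.60 on the log2 scale (SE 0.35), with an unadjusted p of 0.106 and an edgeR adjusted p of 1, so it was not called. Over 16 alternatives the difference was 0.51 to 0.77 and was never called. Opposite directions without overlap were found in 3.61% of the 5256 genes tested.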

How the results depend on the processing

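The rise of Arg1 averaged over the subsets kept its direction and its call in all 16 alternatives, at log2 fold changes of 1.73 to 1.99 and edgeR, DESeq2 or limma adjusted p of 2.52e-25 to 0.00099. Within a subset it kept its direction in all 17 alternatives and its call in 15, with values of 1.60 to 2.12 and adjusted p of 1.03e-10 to 0.174 in Ly6Chi cells, and 1.75 to 1.95 and 5.55e-12 to 0.078 in Ly6Clo cells. Where a library was left out, the number of the 10 genes called was 0 to 1 in either subset, and with the 4 Ly6Clo libraries fitted alone (log2 fold change of Arg1 1.85) it was 0, with fewer samples to estimate the spread. The 45 values of the 9 other genes gave 0 calls over 673 alternative values, with a lowest adjusted p of 0.378 and 47 changes of sign among uncalled values. In the averaged comparison DESeq2 gave no adjusted p for Arg2, Slc7a2, Odc1, Srm and Sms, and these values count as not called. The pathway genes, in the averaged comparison and between the subsets, gave 2 calls over 688 alternative values, both of Ass1, and 47 changes of sign.

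Counts of all genes called moved more. Without the filter they were 8 in Ly6Chi, 16 in Ly6Clo, 35 averaged, 1 for the difference and 58 for Ly6Clo against Ly6Chi, beside 1, 7, 9, 0 and 10 with it. In Ly6Clo they were 3 with plain library sizes, 4 with limma-voom, 2 at a mean count of at least 20, 3 with unrounded values and 0 with that subset alone. With a library left out they were 0 to 3 in Ly6Chi, 0 to 7 in Ly6Clo, 5 to 15 averaged and 3 to 22 for Ly6Clo against Ly6Chi. The cause of these moves was not tested.

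Libraries share replicate numbers, but the labels give no shared origin. Deviations of same-numbered libraries correlated at 0.33 to 0.57 over 2924 genes. A replicate block in the fit gave 14, 29, 60, 1 and 132 called genes in the same order, Arg1 was called at 1.84, 1.85 and 1.84 (Ly6Chi, Ly6Clo, averaged), and 0 of the 4 other tested genes was called in any comparison. Depth limits what can be said of Arg2, Slc7a2, Odc1, Srm and Sms, at 29 to 61 counts each over 8 libraries.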
